A study of Danio rerio with 10 samples.

Results

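The short features of the zebrafish gene table are the genes whose annotated exons add up to fewer than 200 bases, and most of those with a name are genes of small noncoding RNAs. Members were chosen by length alone: a feature was taken if its length in the deposited table was under 200 bases, leaving out 23 on the mitochondrial chromosome and 1145 on chromosome 4 above position 28000000. This left 1993 of the 31388 features (6.35%), spread over 25 chromosomes, with lengths from 10 bases upward and a median of 118 bases. Nearly all of them, 1925, were annotated as 1 exon block and 68 as 2 or more. RNAseq was carried out on FACsorted GFP-positive cells of the adult spinal cord, 5 libraries of oligodendrocyte precursor cells (OPCs) from the line Tg(olig2:eGFP) and 5 libraries of oligodendrocytes (OLs) from the line Tg(mbp:eGFP). Both groups carry a GFP transgene, tissue of as many as 5 fish was handled together, and no treatment or exact age is given. GFP follows the olig2 or the mbp promoter, and in the study's own description olig2:GFP also marks some ventral radial glia. Each population thus came from its own line and passed its own cell strainer, so line, strainer and population cannot be told apart.

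The libraries were made from polyadenylated RNA by full-length cDNA amplification and read from 1 end. The OPC libraries held 11072526 to 11960408 counts each and the OL libraries 13937725 to 20225093. Of the marker lists, 2 of 3 tested OPC genes (olig1 and OLIG2) and 2 of 3 radial glia genes (SOX2 and her4.1) were higher in OPCs. Of 5 tested OL genes 4 were higher in OLs, among them mbpa, cldnk and plp1b. These calls are by edgeR at an adjusted p under 0.05. The OL gene mag was not called (log2 fold change 0.25, edgeR adjusted p = 0.704). It had 11413 normalized counts in OPC replicate 5, against 3238 to 4484 in the remaining OPC libraries. Its median was 3992 in OPCs and 4398 in OLs. OPC libraries also held many myelin reads, with a mean of 541208 normalized counts for mbpa, against 950384 in OL libraries. Summed radial glia markers lay between 151 and 793 normalized counts in OPC libraries and between 15.4 and 49.8 in OL libraries. Summed neuron markers (ELAVL3 and ELAVL4) lay between 5252 and 8133 in OPC libraries and between 6457 and 8210 in OL libraries. Summed microglia and leukocyte markers, mostly apoeb, lay between 2019 and 6966 in OPC libraries and between 3244 and 14734 in OL libraries. The part of these other cells in the results on short features was not tested. In sorted bulk samples, fewer cells of a type and less RNA per cell cannot be told apart.

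Small noncoding RNAs are made by several routes. MicroRNAs (miRNAs) are cut from longer primary transcripts and lower the output of messenger RNAs that carry matching sites. Small nucleolar RNAs (snoRNAs) guide the chemical modification of ribosomal RNA, box C/D members for methylation and box H/ACA members for pseudouridine, and many of them are released from introns of host genes. Most of the U small nuclear RNAs (snRNAs) are parts of the spliceosome. The 5S rRNA is a small RNA of the large ribosomal subunit and is made by RNA polymerase III. In the oligodendrocyte lineage of mammals, miR-219 and miR-338 are known for their rise with differentiation. The mature forms of most of these RNAs carry no long poly(A) tail, and a read counted here names a gene region, not a mature small RNA.

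A symbol was found for 1071 of the 1993 features (53.7%) and 922 have an Ensembl identifier only. The largest named class was 5S rRNA with 636 features, followed by 263 miRNA genes, 53 snoRNA genes and 50 snRNA genes. Another 6 were other named small RNAs, such as vault RNA and 5.8S rRNA, and 63 had other symbols. Most of these genes had no read at all: 503 of 1993 (25.2%) had at least 1 count in any of the 10 libraries and 1490 had none. Among features from 200 to under 300 bases 38.3% were detected (143 of 373), among those from 300 to under 500 bases 53.0% (522 of 985), and over all features 80.6%. Per kilobase, the mean over the features was 3.74 normalized counts for the short features and 246 for features of 500 bases or more, where a normalized count is a count divided by the size factor of its library. The 8 features within 5 bases under the length limit had summed counts of 0 to 43, and the 6 features within the first 5 bases from the limit upward had 0 to 24.

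Detection differed between the classes of small RNA. At least 1 count was found for 49.1% of the snoRNA genes (26 of 53), 30.0% of the snRNA genes (15 of 50), 25.5% of the miRNA genes (67 of 263), 24.5% of the unnamed features (226 of 922) and 21.9% of the 5S rRNA genes (139 of 636). These shares are descriptions and the classes were not tested against each other. Most detected 5S rRNA genes rested on scattered reads, with 101 of the 139 seen in 1 library only and 18 in 3 or more. Because 5S rRNA genes are near copies of each other, a read may fit several of them, and how such reads were counted is not given in the sources used here. Over all classes 231 of the 503 detected features appeared in 1 library only, 176 in 3 or more and 25 in all 10.

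All short features together took 8209 counts, 3884 in OPC libraries and 4325 in OL libraries, or 0.00584% of all counts. The counts were concentrated on a few features: the 5 with the highest mean held 38.4%, the 11 that were later tested 55.9%, and 12 features had a summed count of 100 or more. Short features took 0.0067% ± 0.0007 of the counts of OPC libraries and 0.0053% ± 0.0006 of those of OL libraries (mean ± SD, n = 5 each), and the libraries of both populations overlapped. Without the 5 most abundant features the share was 0.0044% ± 0.0005 in OPCs and 0.0030% ± 0.0003 in OLs, 1.43 times higher in OPCs and with no overlap. The lack of overlap held for shares of the library total only. On the scale of normalized summed counts the libraries of both populations overlapped. The ratio was also smaller there, with 528 in OPCs and 456 in OLs, a log2 difference of 0.21. These sums were not given a test of their own. A higher share of the library total in OPCs was also seen for the next length classes, with no feature left out. The OPC to OL ratio was 1.42 for features from 200 to under 300 bases and 1.21 from 300 to under 500 bases. For all short features it was 1.27. The populations overlapped in each of these classes, and the higher share in OPCs was thus not particular to short features.

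After random thinning of each library to the smallest total, 11072526 counts, OPC libraries had 144 ± 9.90 short features with a count (range 132 to 156) and OL libraries 122 ± 10.5 (range 107 to 135, mean ± SD, n = 5 each). The populations overlapped. Longer features showed the same order, since OPC libraries had 17965 ± 557 detected features of any length and OL libraries 16018 ± 483, without overlap. As a share of all detected features, the short ones made up 0.802% ± 0.0522 in OPCs and 0.760% ± 0.0493 in OLs, with overlap. Before thinning, 148 ± 11.9 were detected in OPC libraries and 150 ± 16.2 in the deeper OL libraries.

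**Figure D1:**
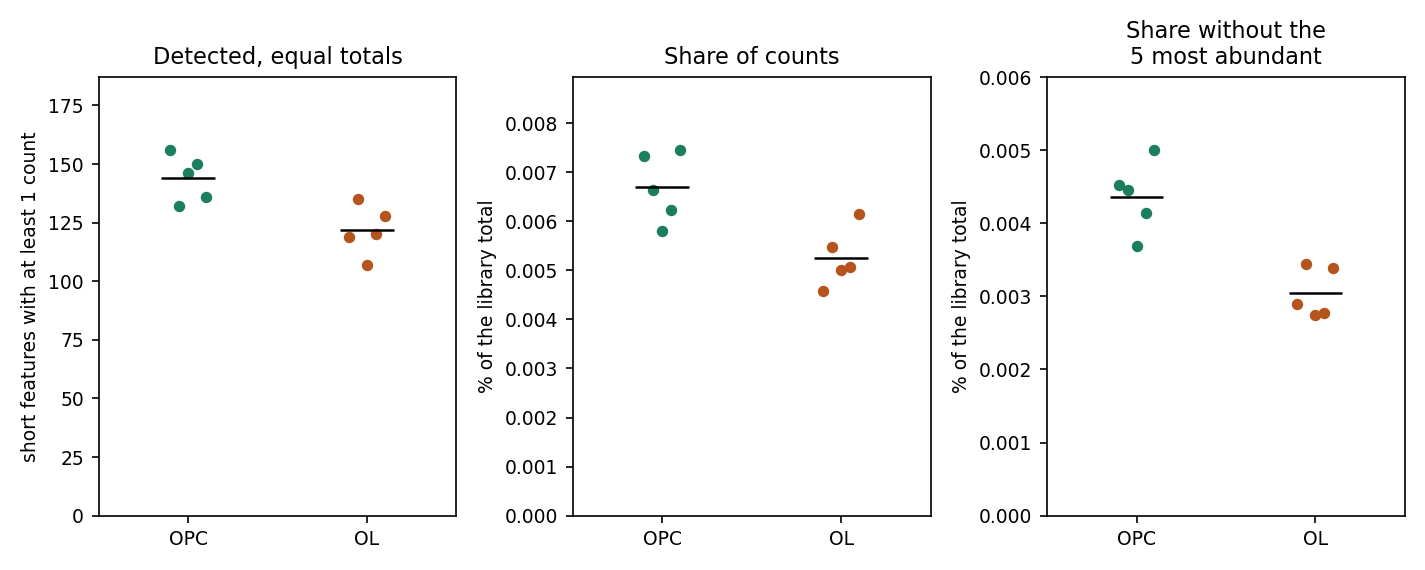
Short features per library, each point 1 library and each line the mean of 5. The left panel gives the number with at least 1 count after thinning to equal totals, from 132 to 156 in OPCs and from 107 to 135 in OLs. The middle panel gives their share of the library total in percent, and the right panel the same without the 5 most abundant features. In the right panel the populations did not overlap, whereas the same sums as normalized counts did.

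Detection was also compared feature by feature, with all reads kept. Of the 503 detected features, 198 had counts in both populations, 161 in OPCs only and 144 in OLs only. In at least 3 OPC libraries 109 features were detected and in at least 3 OL libraries 114, with 81 in both. Counts in 3 or more OPC libraries and in no OL library were found for 9 features (1.79% of those detected, against 3.12% of all 25313 detected features of the table), and the reverse for 11 features (2.19%, against 0.739%). These numbers are not scaled for the deeper OL libraries. The shares over all detected features include many genes with far more counts. The counts behind the 11 OL features were low, with sums of 3 to 8, and among the 9 OPC features all but 1 had sums of 3 to 10.

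The exception was a 5S rRNA gene on chromosome 14, ENSDARG00000104133, at chr14:30400674-30400802 on the plus strand of GRCz10. It had counts of 7, 21, 10, 7 and 17 in OPC libraries, against 0 in each of the 5 OL libraries. Every OPC library therefore lay above every OL library. Populations without overlap, in normalized counts and in either direction, were found for 12.6% of all tested features, to which this gene did not belong. Set against a floor of 3 counts over the OL libraries, its 62 OPC counts gave a ratio of 23.9, scaled by size factors. This ratio leaves out the spread between libraries and the counting error in OPCs. The gene was also singled out for these same counts, so the ratio is not a lower bound on the difference. Its counts were too few to pass the filter of the test over all features. Without the filter it was the only short feature called among 503 (edgeR quasi-likelihood, adjusted p = 0.00475), where 9.23% of 25313 features were called.

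This 5S rRNA gene lies between genes that moved the same way. FOSL1, which encodes an AP-1 transcription factor subunit, ends 438 bases away on the opposite strand and averaged 129 ± 26.6 normalized counts in OPCs and 12.3 ± 8.50 in OLs (log2 fold change 3.39 ± 0.51 SE, adjusted p = 0.000541, edgeR quasi-likelihood). CCDC85B, 5977 bases away on the other side, averaged 165 ± 71.9 in OPCs and 5.50 ± 5.60 in OLs (log2 fold change 4.90 ± 0.82 SE, adjusted p = 0.0012). Both remained past the threshold in each of 10 fits that left out 1 library. Of all tested features, 9.01% were called higher in OPCs. FOSL1 and CCDC85B were looked at because of the counts of the 5S rRNA gene. The part of reads from these neighbours in the counts of the 5S rRNA gene was not tested.

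**Figure D2:**
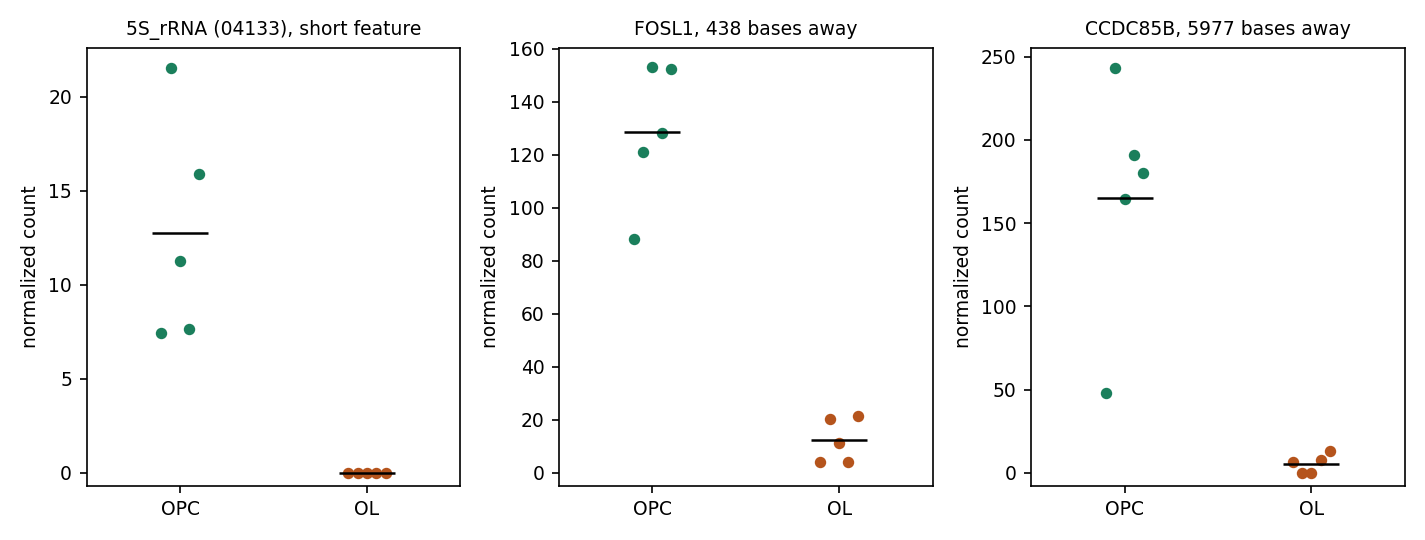
Normalized counts of the 5S rRNA gene ENSDARG00000104133 and of the longer genes on either side of it, each point 1 library and each line the mean of 5. The 5S rRNA gene had counts in all 5 OPC libraries and 0 in all 5 OL libraries. FOSL1 and CCDC85B were also higher in every OPC library than in any OL library. A lack of overlap, in either direction, was found for 12.6% of all tested features.

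The remaining features seen in 1 population rested on a few reads. Among those of OPCs were an unnamed feature of 96 bases over an exon of GRIA2, a glutamate receptor subunit gene (ENSDARG00000088968, counts of 2, 0, 0, 3 and 5 in OPC libraries and 0 in all OL libraries), and both short features in introns of RPL23, a ribosomal protein gene, with 11 counts together in OPCs and 0 in OLs. GRIA2 itself had 379, 698, 807, 1528 and 1209 counts in OPC libraries, against 1, 4, 0, 1 and 0 in OL libraries. RPL23 averaged 899 normalized counts in OPCs and 832 in OLs (edgeR adjusted p = 0.817). The part of reads from these hosts in the counts of the short features was not tested. The U5 snRNA gene ENSDARG00000082842 and mir457a had 3 and 5 counts in OPCs. Among those of OLs were MIR140, with 1 count in each of 4 OL libraries, and 5S rRNA genes with sums of 4 or 5. None of these short features passed the filter of the test.

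Only 11 of the 1993 short features (0.552%) had enough counts to be tested between the populations, compared with 39.2% of the whole table. They are not representative, since passing the filter needs reads in at least 1 population. None of the 11 was called at an adjusted p under 0.05 (edgeR quasi-likelihood, Benjamini-Hochberg over 12292 features), where 11.8% of all tested features were called. At an unadjusted p under 0.05 there was 1 of the 11, against 23.7% of all tested features. DESeq2 called 1 (16.1% of all tested features) and limma voom called 0 (16.4%). The median log2 fold change of OPC over OL was -0.13 over the 11 and 0.06 over all tested features. The 95% confidence intervals were wide, and that of si:dkey-101p2.2 ran from -0.69 to 1.57.

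**Figure D3:**
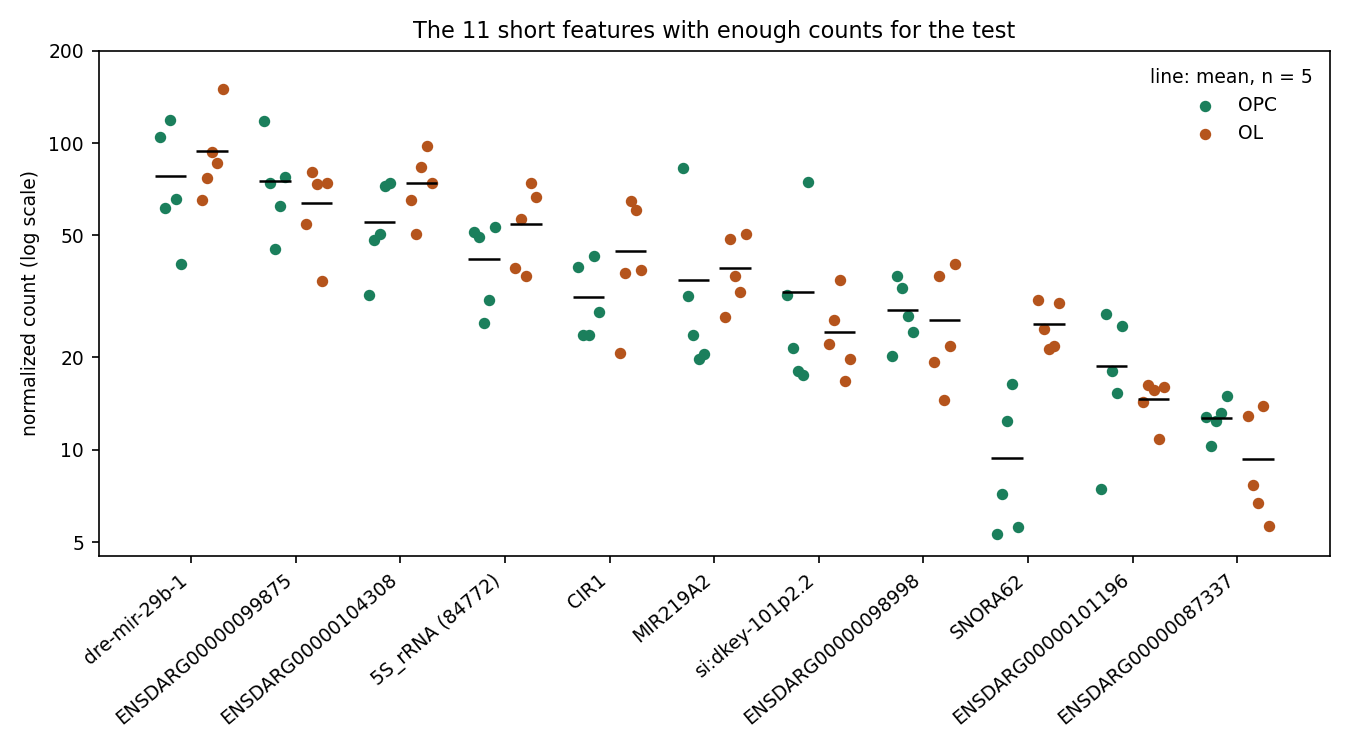
Normalized counts of the 11 tested short features on a log scale, OPC libraries left and OL libraries right of each name, each point 1 library and each line the mean of 5. The populations overlap for all but SNORA62, which lay at 5.32 to 16.4 in OPCs and at 21.2 to 30.7 in OLs.

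SNORA62 is a box H/ACA snoRNA gene of 136 bases on chromosome 3 (ENSDARG00000084991, plus strand), and it was the tested feature with the largest difference. It had 5.32, 7.18, 12.4, 16.4 and 5.61 normalized counts in OPC libraries, against 30.7, 24.8, 21.2, 21.7 and 30.1 in OL libraries. Every OL library was above every OPC library. Populations that did not overlap, in either direction, were found for 1 of the 11 and for 12.6% of all tested features. The OPC mean was 9.38 ± 4.86 and the OL mean 25.7 ± 4.49 (SD, 5 libraries each), a log2 fold change of -1.46 ± 0.50 (SE, 95% interval -2.54 to -0.38). This did not pass the threshold with edgeR (adjusted p = 0.0816) and passed it with DESeq2 (adjusted p = 0.0448). Over all alternatives the adjusted p ranged from 0.0448 to 0.216.

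The genes on either side of SNORA62 were sparsely counted. MCOLN1, which encodes a lysosomal cation channel, lies 2608 bases away on the opposite strand with 0 to 13.5 normalized counts in OPC libraries and 7.51 to 34.6 in OL libraries (log2 fold change -2.15, adjusted p = 0.182, edgeR). ENSDARG00000040067, 8504 bases away on the other side, had 0 to 2.80 in OPCs and 4.70 to 37.6 in OLs and was not tested. Their part in the difference of SNORA62 was not tested. Among the 14 H/ACA symbols SNORA62 held 86.7% of 218 counts.

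The short feature with the highest mean was dre-mir-29b-1, a miRNA gene of 83 bases on chromosome 6 (ENSDARG00000080152, plus strand). The miR-29 family is best known in mammals for lowering the messenger RNAs of collagens and other matrix proteins. It had 104, 61.5, 119, 65.7 and 40.2 normalized counts in OPC libraries, against 65.0, 76.9, 93.9, 86.0 and 150 in OL libraries. The populations overlapped, and no difference was detected (log2 fold change -0.27, 95% interval -1.06 to 0.52, edgeR adjusted p = 0.727). Per kilobase of feature it stood at 942 normalized counts in OPCs and 1137 in OLs, the highest of the 11. The other 2 miR-29 genes of the table that meet the length rule, MIR29A and MIR29B1, had no count in any library.

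MIR219A2, a gene of the miR-219 family on chromosome 10 (ENSDARG00000082257, 91 bases, minus strand), was the other miRNA gene with enough counts. In mammals miR-219 promotes the differentiation of OPCs into OLs. It had 83.0, 31.8, 23.6, 19.7 and 20.6 normalized counts in OPC libraries, against 27.1, 48.7, 36.9, 32.6 and 50.7 in OL libraries. OPC replicate 1 was the highest of all 10 libraries, while the other 4 OPC libraries lay at or under 31.8. No difference was detected (log2 fold change -0.13, 95% interval -1.20 to 0.94, edgeR adjusted p = 0.915), and without OPC replicate 1 the log2 fold change was -0.71. Of the other miR-219 genes, 1 of 2 was detected, with 1 count, and the miR-338 genes had 1 count each for 2 of 3.

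MIR219A2 was the only tested short feature inside a longer one. It lies in an intron of si:dkeyp-68f6.3, on the same strand, at chr10:10371226-10371316 within a host that spans chr10:10361070-10374189. The host had 1, 2, 3, 10 and 0 counts in OPC libraries and 3, 7, 7, 5 and 3 in OL libraries over 624 exonic bases. Per kilobase, MIR219A2 stood at 393 normalized counts in OPCs and 431 in OLs, against 5.59 and 7.60 for the host. Reads over the miRNA thus outnumbered reads over the exons of its annotated host in every library, and the host itself was too sparse to be tested.

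The tested 5S rRNA gene, ENSDARG00000084772 on chromosome 12, held 504 of the 942 counts (53.5%) on 5S rRNA genes. It had 51.1, 49.2, 25.9, 30.7 and 53.3 normalized counts in OPC libraries, against 39.3, 56.4, 36.9, 74.1 and 66.7 in OL libraries, which overlapped (log2 fold change -0.38, edgeR adjusted p = 0.624). It lies 1997 bases from the 3′ end of QKI, on the opposite strand. QKI encodes an RNA-binding protein with a known part in myelin messenger RNA processing and averaged 11535 normalized counts in OPCs and 12093 in OLs (edgeR adjusted p = 0.875).

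CIR1 on chromosome 9 (ENSDARG00000099733, 182 bases) has the symbol of a transcriptional corepressor gene. It had 39.4, 23.6, 23.6, 42.7 and 28.0 normalized counts in OPC libraries, against 20.7, 37.6, 64.8, 60.3 and 38.5 in OL libraries, with overlap (log2 fold change -0.49, edgeR adjusted p = 0.565). Its nearest longer gene, SCRN3, 1291 bases away on the opposite strand, had a log2 fold change of -0.42 (edgeR adjusted p = 0.352), the same sign as CIR1. On the other side CHN1, 6566 bases away and encoding a GTPase-activating protein of neurons, was higher in OPCs (log2 fold change 1.15, edgeR adjusted p = 0.0272), and that call was kept in 6 of 10 fits without 1 library. The feature si:dkey-101p2.2, named after a genomic clone, on chromosome 18 (157 bases in 2 exon blocks) had 31.9, 21.5, 18.0, 17.5 and 74.8 in OPC libraries, against 22.1, 26.5, 35.8, 16.8 and 19.7 in OL libraries (log2 fold change 0.44, edgeR adjusted p = 0.683). OPC replicate 5 alone stood above all other libraries, and without it the log2 fold change was -0.12. The nearest longer gene, TSPAN9, lies 96374 bases away on the same strand and was also highest in OPC replicate 5. TSPAN9 had 506 normalized counts there, 92.3 to 118 in the remaining OPC libraries and 93.9 to 177 in OL libraries. Its part in the counts of si:dkey-101p2.2 was not tested.

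The other 5 tested features have no symbol, and their log2 fold changes lay between -0.42 and 0.44 with edgeR adjusted p values of 0.531 to 0.929. ENSDARG00000104308 (87 bases) and ENSDARG00000087337 (168 bases) are neighbours on the minus strand of chromosome 5, both beyond the 3′ end of zgc:158463. The first had 31.9, 48.2, 50.6, 72.3 and 73.8 normalized counts in OPC libraries, against 65.0, 50.4, 83.8, 97.8 and 74.2 in OL libraries, and the second had 10.3 to 15.0 in OPCs and 5.63 to 13.8 in OLs. Their fold changes had opposite signs, and neither differed beyond the spread of the libraries. ENSDARG00000099875 on chromosome 10, the second most abundant, had 118, 73.9, 45.0, 62.5 and 77.6 in OPC libraries, against 54.3, 80.3, 73.7, 35.6 and 74.2 in OL libraries. ENSDARG00000098998 on chromosome 12 had 20.2 to 36.9 in OPCs and 14.5 to 40.4 in OLs, and ENSDARG00000101196 on chromosome 9 had 7.45 to 27.7 in OPCs and 10.9 to 16.2 in OLs. Of the 5, 4 lie on the same strand as their nearest longer feature and past its 3′ end.

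**Figure D4:**
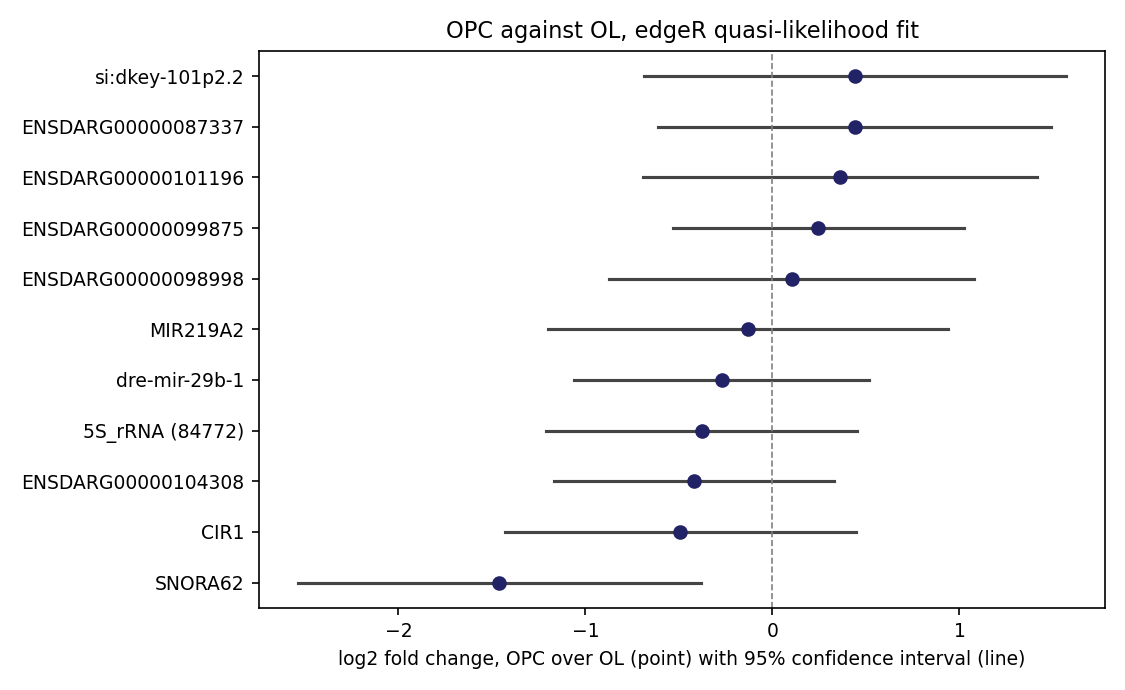
Log2 fold change of OPC over OL for the 11 tested short features, points with lines for the 95% confidence interval of the edgeR fit. The interval of SNORA62, from -2.54 to -0.38, is the only one that leaves out 0, and its adjusted p was 0.0816.

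Most of the abundant short features lay outside longer genes. Of the 503 detected features 294 overlapped a longer feature by at least 1 base, as did 1112 of all 1993 (55.8%). Detection was 26.4% with such an overlap and 23.7% without it. By position, 882 of the 1993 lay outside longer features, 580 in an intron of a longer feature on the same strand, 320 in an intron on the opposite strand, 105 over an exon on the same strand and 106 over an exon on the opposite strand. Features outside longer ones held 5848 of the 8209 counts (71.2%), and 10 of the 11 tested features were among them. The features in an intron or over an exon of a longer one had 856 different hosts. Wholly inside a longer feature were 1095. In OPC libraries 29.4% ± 2.18 of the counts on short features fell on these nested ones and in OL libraries 26.5% ± 1.09 (mean ± SD, n = 5 each), and the populations overlapped.

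Detection followed position. Of the features in an intron on the same strand 34.1% were detected, of those in an intron on the opposite strand 25.0%, and outside longer features 23.7%. Over an exon the share was 11.4% on the same strand and 3.77% on the opposite strand. By default featureCounts leaves out a read that overlaps 2 features, and whether this setting was used is not given in the sources used here. The largest count over an exon was 72, for an unnamed feature of 108 bases in zgc:112023 (ENSDARG00000098088), with 27 counts in OPC libraries and 45 in OL libraries.

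Features in introns were found more often where the host was more abundant. For introns on the same strand, detection was 10.1% where the host had a mean under 1 normalized count (n = 109), 32.7% from 1 to 100 (n = 217), 41.9% from 100 to 1000 (n = 172) and 53.7% at 1000 or more (n = 82). For introns on the opposite strand the same steps gave 14.8%, 21.8%, 32.6% and 40.9%. Over exons on the same strand there was no such order, with 5.56%, 12.5%, 18.2% and 5.88% (1 of 17 at 1000 or more). Outside longer features, detection was 38.9% within 2000 bases of the nearest longer feature, 29.5% up to 10000 bases, 22.1% up to 50000 bases and 12.4% beyond. These shares are a description across features that share libraries and, in part, hosts. The part of reads from the introns and ends of longer genes in them was not tested.

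**Figure D5:**
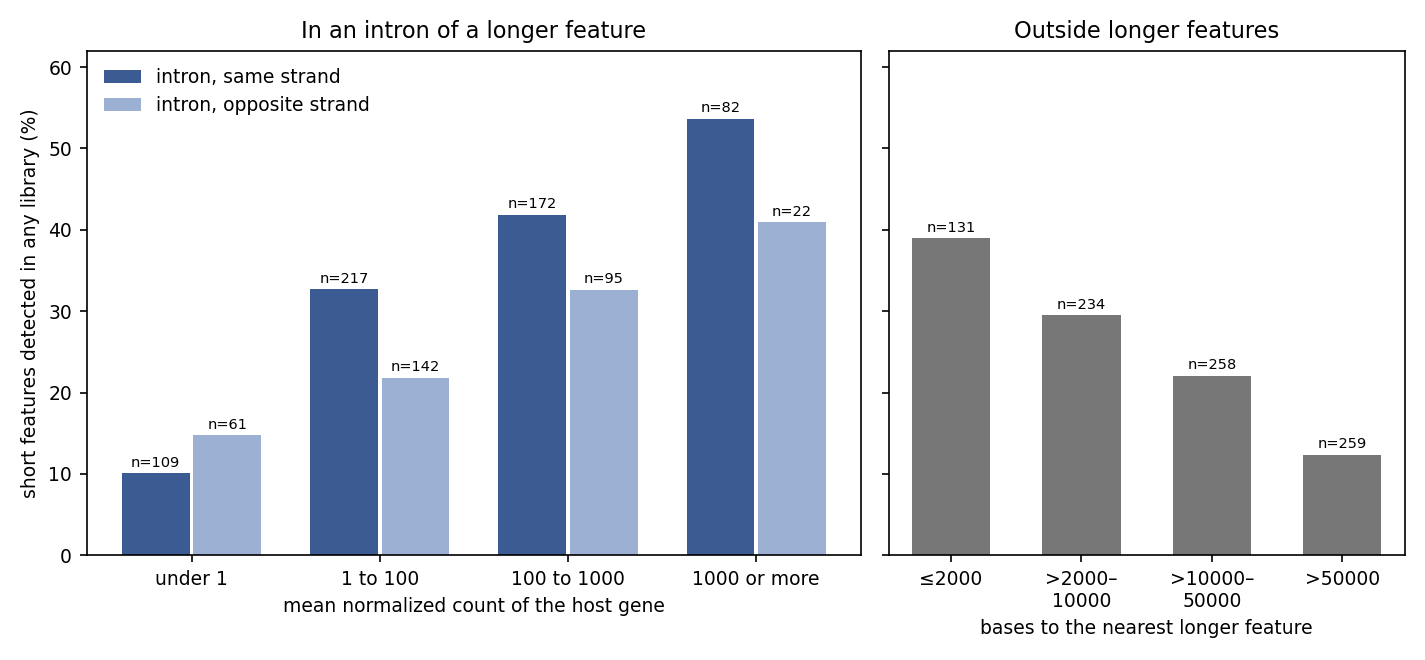
Percent of short features with at least 1 count in any of the 10 libraries, with the number of features above each bar. In introns (left) the share grew with the mean normalized count of the host on both strands, from 10.1% to 53.7% on the same strand, and outside longer features (right) it fell from 38.9% within 2000 bases to 12.4% beyond 50000 bases.

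Several hosts held groups of nested features with counts. The gene si:ch211-152p11.8 on chromosome 19 holds unnamed features of 67 bases, all of equal length and on the strand of the host: 6 lie in introns, all detected, with sums over each OPC library of 19, 25, 9, 39 and 24 counts, against 10, 21, 18, 13 and 7 in OL libraries, and 1 more overlaps an exon. The host averaged 237 normalized counts in OPCs and 217 in OLs (edgeR adjusted p = 0.837). In si:zfos-1451h6.1 on chromosome 11, 3 unnamed features of 87 to 94 bases had 12, 11, 9, 4 and 6 counts together in OPC libraries, against 24, 18, 14, 20 and 14 in OL libraries. The raw counts of this second group did not overlap, while its host averaged 87.0 normalized counts in OPCs and 75.8 in OLs (edgeR adjusted p = 0.725). Populations without overlap, in normalized counts and in either direction, were found for 12.6% of all tested features, to which these 3 did not belong. These raw sums are not scaled for the deeper OL libraries.

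Named box C/D genes were seen at a few counts each, 160 counts in all over 37 genes of which 17 were detected. In si:dkey-23i12.5 on chromosome 7, snord31.2 had 4, 4, 4, 7 and 5 counts in OPC libraries, against 2, 2, 2, 1 and 1 in the deeper OL libraries. Every OPC library was thus above every OL library. Such a lack of overlap, in normalized counts and in either direction, was found for 12.6% of all tested features. As snord31.2 had too few counts to be one of these, that share does not describe features of its depth. The neighbour of snord31.2 in the same host, snord31.1, had 0, 5, 3, 4 and 2 in OPCs, against 0, 3, 3, 1 and 1 in OLs. SNORD54, in an intron of the ribosomal protein gene rps20, had 0, 1, 3, 2 and 0 in OPCs, against 2, 7, 2, 10 and 6 in OLs. Both SNORD18 genes of RPL4 that were detected (ENSDARG00000082911 and ENSDARG00000082511) had 27 counts together in OPCs and 17 in OLs. Among H/ACA genes, SNORA81 in EIF4A2, a translation initiation factor gene, had 9, 0, 1, 7 and 0 in OPCs, against 1, 0, 0, 0 and 0 in OLs. None of these was abundant enough for the test, and their hosts did not pass the threshold. The host si:dkey-23i12.5 had 76.5 to 163 normalized counts in OPC libraries and 61.5 to 76.4 in OL libraries, without overlap. Its log2 fold change was 0.74 (edgeR adjusted p = 0.116), and its part in the counts of the snoRNA genes was not tested.

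Among the spliceosomal kinds with counts, 1 copy of each took most of them, down to 10 of 17 counts (58.8%) for U5. Where copies of a kind are alike, a read may fit several of them. How such reads were counted is not given in the sources used here. The U1 gene ENSDARG00000083063, in an intron of MAK16, held 48 of 51 U1 counts, with 5, 10, 3, 5 and 2 in OPC libraries, against 15, 4, 1, 2 and 1 in OL libraries. The U2 gene ENSDARG00000082321, in an intron of esyt1b, held 49 of 52 U2 counts, with 5, 6, 6, 5 and 8 in OPCs, against 9, 2, 4, 3 and 1 in OLs. The U6 gene ENSDARG00000091605 had 11 counts in OPCs and 10 in OLs. No count fell on either U4 gene. These RNAs are abundant in cells as mature molecules, whereas these libraries held few reads on their genes.

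Beyond miR-29 and miR-219, the let-7 family gave the most miRNA reads. Its members are known for keeping progenitor genes low as cells mature. Of 17 let-7 genes 9 were detected, with 118 counts in OPC libraries and 97 in OL libraries. The top gene, dre-let-7b on chromosome 4, had 12, 4, 13, 15 and 1 counts in OPCs, against 3, 6, 9, 5 and 8 in OLs, and mirlet7a-3 on the same chromosome had 6, 7, 6, 2 and 8 in OPCs, against 1, 2, 0, 5 and 1 in OLs. The gene mirlet7a-6 had the opposite order, with 3, 3, 2, 1 and 2 in OPCs, against 3, 6, 4, 4 and 8 in OLs. For all 3 the libraries of both populations overlapped.

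Other glial and neural miRNA genes were near the limit of detection. The gene dre-mir-138, whose miRNA favours oligodendrocyte differentiation in mammals, had 1, 0, 4, 0 and 2 counts in OPC libraries, against 3, 3, 4, 5 and 2 in OL libraries. The gene mir7a-3 had 10 counts in OPCs and 20 in OLs, of which 14 came from OL replicate 1. MIR21 had 9 in OPCs and 9 in OLs. Of the miR-124 genes, which mark neurons, mir124-6 had 5 in OPCs and 2 in OLs, and of 7 miR-9 genes 1 was detected, with 4 counts. MIR181B1 had 10 in OPCs and 1 in OLs, and MIR92A1 of the miR-17 to miR-92 group had 6 in OPCs and 4 in OLs. Of the other named small RNAs, a 5.8S rRNA gene on chromosome 1 had 16 counts in OPCs and 17 in OLs, and a vault RNA gene had 4 in OPCs and 10 in OLs. None of these had enough counts for the test. A count of 0 in the shallowest library allows up to 3 counts in 11072526.

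Genes whose proteins make and carry small RNAs were looked at in the same libraries. Of 32 such genes on a list, 30 were matched and 29 features tested, of which 0 were called in the OPC direction, 1 in the OL direction and 28 did not pass the threshold (edgeR, adjusted p under 0.05). Of all tested features, edgeR called 9.01% in the OPC direction and 2.82% in the OL direction. The median log2 fold change of the list was -0.03, beside 0.06 over all tested features. The one gene called was SSB, which encodes the La protein that binds the ends of RNA polymerase III transcripts. It had 758, 405, 675, 679 and 875 normalized counts in OPC libraries, against 1018, 1130, 1113, 894 and 1161 in OL libraries, without overlap (log2 fold change -0.65 ± 0.19 SE, adjusted p = 0.0468). That call was kept in 2 of 10 fits without 1 library, where the adjusted p ranged from 0.018 to 0.0889. It was kept in 3 of 7 other fits and lost with TMM scaling, library size alone, the replicate block and a minimum of 10 counts in every library, with an adjusted p of up to 0.275.

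The miRNA genes' processing factors DROSHA, its partner DGCR8 and DICER1 averaged 168, 898 and 295 normalized counts in OPCs and 157, 900 and 221 in OLs, with edgeR adjusted p values of 0.858, 0.997 and 0.346. NOP56 and NOP58, core proteins of box C/D particles, had adjusted p values of 0.929 and 0.0851, and DKC1, the pseudouridine synthase of H/ACA particles, 0.947. Both AGO1 and XPO5, an Argonaute and the export factor of miRNA precursors, were too sparse to be tested.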

How the data were processed

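The authors deposited 1 table of raw counts per Ensembl gene for 31388 features and 10 libraries, with coordinates and a feature length (the sum of exon bases). Per the submitters' processing notes, GSNAP (2016-09-23), the GRCz10 build and featureCounts (1.5.2) were used to map and count the reads. Strand use and the treatment of reads that map to several places are not given in the sources used here. Same and opposite strand therefore describe the annotated features only, not the strand that a read came from. Symbols came from a gene name table, matched by identifier for 25925 features.

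The deposited counts entered the quasi-likelihood test of edgeR (4.0.16, in R 4.3.3) on features kept by filterByExpr, with DESeq2 (1.42.0) size factors and a threshold of 0.05. DESeq2's Wald test and limma voom (3.58.1) were alternatives, as were other scalings, filters, length limits, a replicate block and leaving out each library. The test was checked on simulated counts of features that pass the filter. That check does not cover the fit without a filter or features too sparse for the test. A feature was called detected at 1 count or more. Thinning drew counts at random without replacement. A member was placed inside a feature if its span lay wholly within that of a longer feature. As host, a longer feature with an exon that the member overlaps came first, then one that holds the member's span. In each step the same strand came first, and the shortest span was taken.

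The 5 libraries of each population are stated to be biological replicates. Counting limits cover counting error only, since reads without molecular identifiers are not independent molecules. Sums and detection counts over members were given no p, although exact permutation tests had been planned, and the planned test of a nested member against its host could not be run, since no nested member and its host both passed the filter. Named features are members that were called, the 8 with the highest mean, members of a list of small RNA families seen in at least 3 libraries, their hosts, and a list of genes for small RNA maturation. From these, families and nested groups were summarised by counts, and features seen in 1 population, flanking genes and the other tested members were chosen after their values were seen. The members and lists were chosen with earlier results of these data known. No sequence was printed, as no file used here holds one. Some items are not reported here.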

Additional observations from a re-analysis of the deposited data

Results flagged for a closer look

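Among the 32 groups of 5 libraries that were checked, 2 had 1 library far from the others, and chance alone gives about 1 in 20 groups, or 1.6. MIR219A2 had 83.0 normalized counts in OPC replicate 1, against 19.7 to 31.8 in the other 4 OPC libraries. The feature si:dkey-101p2.2 had 74.8 normalized counts in OPC replicate 5, against 17.5 to 31.9 in the other 4. Longer genes such as TSPAN9 and mag were also highest in that library. In both the gap to the next library was over 0.71 of the range of the group, the limit used for 5 values.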

How the results depend on the processing

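No short feature was called in any of the 10 fits without 1 library, which called 1282 to 1796 features of any length. DESeq2 called 1 (SNORA62, adjusted p = 0.0448), beside 16.1% of all tested features. Without a filter 1 of 503 was called (the 5S rRNA gene ENSDARG00000104133), against 9.23% of all features. With the length limit at 300 bases it was 2 of 18 (both over 200 bases), against 11.8% of all tested features. The other alternatives called 0 short features and 449 to 2017 features of any length. As log2 ratios of OPC over OL, the number detected was 0.24 with equal totals, -0.0252 without thinning, 0.53 at 3 counts or more and 0.42 at 10 or more. Its share of detected features gave 0.078 with equal totals, -0.13 without thinning, 0.33 at 3 counts or more and 0.18 at 10 or more. The ratio for the share of counts was 0.042 as a normalized sum and 0.17 under 100 bases, and 0.21 as a normalized sum without the top 5. The share inside longer features gave -0.0163 without the top 5. Leaving out 1 library gave 0.20 to 0.28 for the number detected, 0.04 to 0.11 for its share, 0.30 to 0.41 and 0.46 to 0.57 for the shares of counts with and without the top 5, and 0.12 to 0.18 for the nested share. Scaling by library size alone moved the median of all tested features by 0.31 log2 and the share of calls higher in OPCs to 93.9%, against 76.2%, and turned the sign of dre-mir-29b-1 (0.017) and MIR219A2 (0.17). Limma voom turned si:dkey-101p2.2 (-0.13). Without 1 library, signs turned for si:dkey-101p2.2 (-0.115 without OPC replicate 5, up to 0.617), MIR219A2 (-0.713 without OPC replicate 1, up to 0.0203) and ENSDARG00000098998 (-0.0573 to 0.298). The cause was not tested. The replicate block left the number of short features called at 0. Same-numbered libraries come from different lines, and their deviations correlated at 0.0240 to 0.105, with 8 of 10 libraries closest to their own number. Libraries of different numbers correlated at -0.102 to 0.0730. The numbers were not treated as pairs in the main fit, and whether same-numbered libraries were processed together is not given in the sources used here. With 8209 counts on 1993 features, depth limits most comparisons.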
